A study of Aspergillus niger with 11 samples.

Results

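The middle limited phase of an oxygen-limited Aspergillus niger fermentation, sampled at 42 h, was compared with the exponential phase, sampled at 18 h, across all genes. The comparison uses 6 of the 11 RNA libraries of the series, 3 at 42 h and 3 at 18 h. Of the 10445 genes in the files, 8693 had 1 FPKM or more in 2 or more libraries and were tested. FPKM is the number of sequenced fragments of a gene, scaled to the length of its transcript and to the mapped total of the library. The emphasis is on the 2933 genes whose mean over all 11 libraries was at least 30 FPKM.

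Both groups came from strain DS03043, which is known as a producer of glucoamylase. The labels give no genotype and no number of glaA copies. The fungus was grown fed-batch in a 5 L fermenter, stirred at 375 rpm and 34 °C, at pH 4.5, with 1 vvm of air (volumes of air per volume of broth and minute) and an overpressure of 0.05 MPa. Oxygen limitation is given as the treatment of every library, the 18 h libraries included, so no culture without it serves as a control, and oxygen supply and culture age cannot be told apart. The early limited phase at 24 h (3 libraries) and the late limited phase at 66 h (2 libraries) complete the series. Since the labels list the times without tying them to libraries, each phase was given its time by chronology. The labels do not say whether replicates are separate cultures, and the spread that the p-values measure may therefore be technical.

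Aspergillus niger is a filamentous mould that breaks down starch and plant polysaccharides with secreted enzymes and takes up the sugars released. It gains most of its energy by respiration, and dense mycelium can use oxygen faster than stirring and aeration dissolve it. Secreted enzymes are folded in the endoplasmic reticulum and pass through the Golgi before release, and glucoamylase, the enzyme that cuts glucose from the ends of starch chains, is the best known of them in industry.

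The depth behind the values was read from the low FPKM values, which in 7519 of 8697 genes with 2 or more values above 0 were whole multiples of the FPKM of 1 read. A gene was counted when all its values under 20 reads came within 0.06 reads of a whole number, with its lowest value taken as 1 to 3 reads. Relative to the shallowest library of the series, the depth was 1.38 to 1.43 in the 42 h libraries and 1.08 to 1.21 in the 18 h libraries. The libraries listed 5736 to 5959 genes above 0 at 42 h and 5399 to 5714 at 18 h. Among the 2933 genes stressed here, the Pearson correlation of log2(FPKM + 1) across genes was 0.729 to 0.738 between 42 h libraries and 0.675 to 0.714 between 18 h libraries. Across the groups it was 0.474 to 0.538, below every value within a group. Only 102 genes carried a symbol, so most genes below are given by locus and no role can be stated for them.

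At 42 h, 433 of the 2933 genes differed from 18 h at an adjusted p under 0.05 (limma, Benjamini-Hochberg adjustment over all genes tested), which is 14.8%. Of these, 207 (7.06%) rose and 226 (7.71%) fell. Over all 8693 genes tested, 522 (6.00%) differed, 260 (2.99%) upwards and 262 (3.01%) downwards, and 1576 (18.1%) had an unadjusted p under 0.05. The values of the 2 groups did not overlap in any of the 433 genes. That holds for 1220 (41.6%) of the 2933 genes, so it is no mark of the genes called. In whole broth, fewer cells that express a gene and less RNA per cell cannot be told apart.

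Most of the changes that were called were large. The median log2 fold change was 2.16 in the genes that rose and -1.97 in those that fell. By abundance, these medians were 4.04 and -4.735 in called genes with a mean of 30 to 100 FPKM. In called genes at 1000 FPKM or more they were 1.36 and -1.03. Small changes in low genes were often not detectable, so the medians describe the genes called and not all genes. At least 4-fold changes were seen in 114 genes that rose and 109 that fell, and at least 32-fold changes in 32 and 37. These counts are on the log2(FPKM + 1) scale, where a fold against values near 0 depends on the FPKM added. For An14g02300, near 0 at 18 h, the log2 fold change was 7.08 with 1 FPKM added. It was 8.26 with 0.1 and 5.42 with 10 FPKM added. Changes under 2-fold were called in 18 genes that rose and 33 that fell. The genes that rose lie above the diagonal over the whole range of levels in the plot of 42 h against 18 h levels.

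**Figure D1:**
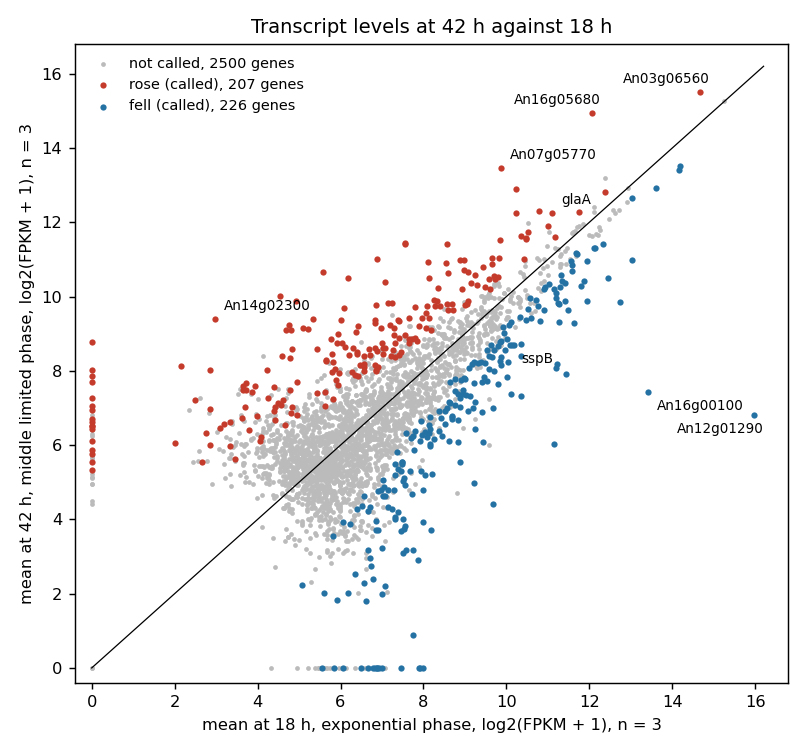
Mean log2(FPKM + 1) at 42 h (vertical axis, n = 3) against the mean at 18 h (horizontal axis, n = 3) for the 2933 genes with a mean of at least 30 FPKM. Each point is 1 gene, the line marks equal levels, 207 genes rose (red), 226 fell (blue) and 2500 were not called (grey). An12g01290 stands at the far right, far below the line.

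The share of genes called grew with abundance. It was 6.74% of 1603 genes with a mean of 30 to 100 FPKM, 16.6% of 758 genes from 100 to 300, 27.9% of 408 genes from 300 to 1000, and 51.8% of the 164 genes at 1000 or more. The median SE of the log2 change moved the other way and was 0.88, 0.44, 0.26 and 0.17 in the same classes. Among genes under 30 FPKM, 89 of 5760 (1.55%) were called, with a median SE of 1.39. A change in a gene of low abundance was often not detectable at this depth. Of the 433 genes, 176 had values that could be turned into reads, with a median of 43.5 reads over the 3 libraries of the higher group. Among genes of at least 30 FPKM, the 207 rises became 126, 127 and 126 without 42 h replicate 1, 2 or 3, and the 226 falls became 143 without 18 h replicate 1 or 3. A variance prior that did not depend on the level gave 144 calls in place of 433.

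At 42 h the genes that rose held 26.6% ± 0.194 of the FPKM sum of a library, against 8.35% ± 0.56 at 18 h (SD, n = 3 each). The genes that fell held 11.3% ± 0.0839 at 42 h, against 31.2% ± 0.683 at 18 h. The genes were chosen by this contrast, so these shares only describe how much of the transcript pool they make up. In the libraries the contrast did not use, the genes that rose held 11.5% ± 2.07 at 24 h (n = 3) and 26.7% ± 0.403 at 66 h (n = 2). The genes that fell held 23.8% ± 2.01 at 24 h and 11.6% ± 0.0212 at 66 h. The transcript pool at 66 h was thus close to that at 42 h in this respect, while that at 24 h lay nearer to 18 h. At 24 h, replicate 1 stood apart with 13.8% in the genes that rose.

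**Figure D2:**
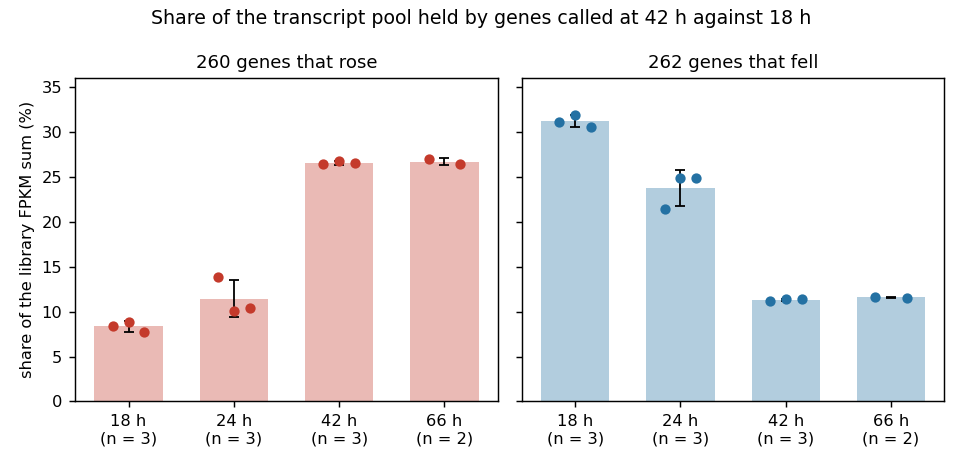
Share of a library's FPKM sum (percent, vertical axis) held by the 260 genes that rose (left) and the 262 genes that fell (right) at 42 h against 18 h, by sampling time. Bars are means, points are libraries and error bars are the SD. The shares at 66 h, 26.7% and 11.6%, lie beside those at 42 h, 26.6% and 11.3%.

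The largest single loss was that of An12g01290. It had 51.7, 50.2 and 232 FPKM at 42 h, against 58020, 69848 and 65699 FPKM at 18 h. It held 6.04% ± 0.549 of the FPKM sum at 18 h, more than any other gene named here, and 0.0114% ± 0.0107 at 42 h. Its log2 fold change was -9.55 (SE 0.48, limma adjusted p = 2.38e-06). At 42 h these values stand for 2, 2 and 9 reads, so the size of the fold rests on few reads on that side. It still had 30240.0, 44217 and 44108 FPKM at 24 h and was down to 67.2 and 118 FPKM at 66 h. Without it, the genes that fell still held 11.3% at 42 h, against 25.2% at 18 h.

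An16g00100 behaved alike. It had 131, 163 and 224 FPKM at 42 h, against 10832, 11033 and 10932 FPKM at 18 h (log2 fold change -6.01, SE 0.22, limma adjusted p = 2.62e-07). It stood at 7595, 12947 and 11084 FPKM at 24 h, which spans the 18 h values, and at 81.1 and 68.5 FPKM at 66 h. An16g02980 had 0, 20 and 41.1 FPKM at 42 h, against 963, 861 and 607 FPKM at 18 h, and 511, 639 and 1081 FPKM at 24 h. In all 3 genes the level at 24 h was thus still far above that at 42 h.

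Close to An12g01290 in the gene order lies An12g01270, which was listed at 0 in every 42 h library, against 113, 104 and 145 FPKM at 18 h. The gene between them, An12g01280, had 19.9, 9.61 and 39.7 FPKM at 42 h, against 113, 122 and 102 FPKM at 18 h, and was not called (limma adjusted p = 0.3686). An12g01280 was named after its values were seen.

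The other large losses of transcript came from genes that stayed abundant. An08g11190 had 10976, 10646 and 10993 FPKM at 42 h, against 19952, 18305 and 16530 FPKM at 18 h (log2 fold change -0.74, SE 0.08). An16g04190 had 11702, 11386 and 11890 FPKM at 42 h, against 17819, 18351 and 19803 FPKM at 18 h (log2 fold change -0.68, SE 0.07). An16g06900 had 2006, 2245 and 1833 FPKM at 42 h, against 9473, 7884 and 7644 FPKM at 18 h (log2 fold change -2.04, SE 0.14). In all 3 genes each 42 h library was below each 18 h library, and the limma adjusted p-values were 0.0002947, 0.0002351 and 2.272e-05. With 1 variance prior for all levels, those of An08g11190 and An16g04190 were 0.3517 and 0.3896. The falls of An16g04190 and An08g11190 changed in size with the scale between libraries. With the same FPKM sum in each library the log2 fold changes were -0.55 and -0.62, and with median-of-ratios scaling -0.63 and -0.70. The limma adjusted p-values of these 4 were 0.001826 or less. After quantile normalization the log2 fold change of An16g04190 was 0.0, as it ranked 4 or 5 by level in each library of both groups. That of An08g11190 was -0.32 (limma adjusted p = 0.02157).

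The largest gain of transcript was that of An16g05680, with 28818, 35181 and 29873 FPKM at 42 h, against 4743, 4393 and 3671 FPKM at 18 h (log2 fold change 2.88, SE 0.40, limma adjusted p = 0.001772). Its share of the FPKM sum was 3.19% ± 0.335 at 42 h and 0.400% ± 0.0582 at 18 h. At 24 h it stood at 10043 FPKM in replicate 1 and at 2476 and 2949 FPKM in replicates 2 and 3. In both replicates 2 and 3 it was thus below every 18 h value. An07g05770 had 11105, 10635 and 11915 FPKM at 42 h, against 1143, 1133 and 523 FPKM at 18 h (log2 fold change 3.67, SE 0.35, limma adjusted p = 0.0002024), and went on to 16214 and 14452 FPKM at 66 h. An11g03350 had 7950, 7277 and 7673 FPKM at 42 h, against 1239, 1252 and 1136 FPKM at 18 h. An18g06140 had 5207, 5172 and 4172 FPKM at 42 h, against 1315, 1187 and 1087 FPKM at 18 h. The log2 fold changes of these last 2 genes were 2.66 (SE 0.19) and 2.02 (SE 0.16), with limma adjusted p-values of 2.272e-05 and 4.74e-05, and no value of either group overlapped.

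Glucoamylase transcript rose. glaA (An03g06550) had 5013, 4073 and 5427 FPKM at 42 h, against 2187, 2089 and 2325 FPKM at 18 h. Every 42 h library was above every 18 h library, and the log2 fold change was 1.13 (SE 0.12, limma adjusted p = 0.0002947). The mean of glaA was 3970 ± 323 FPKM at 24 h (n = 3) and 3179 ± 114 FPKM at 66 h (n = 2), so 42 h had its highest mean, although the values at 24 h and 42 h overlapped. An03g06560, the gene next to glaA in the gene order, was the most abundant riser, with 44962, 45340 and 48179 FPKM at 42 h, against 26091, 27718 and 24581 FPKM at 18 h (log2 fold change 0.82, SE 0.06, limma adjusted p = 3.199e-05). Both calls rest on a variance that depends on the level: with 1 variance prior for all levels the limma adjusted p-values were 0.1819 for glaA and 0.3115 for An03g06560.

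The other starch genes with a symbol were not called, so glaA was 1 of 5 members that passed, beside 6.00% of all genes tested, and the median log2 fold change of the list was 0.17. amyA, which encodes alpha-amylase, had 1100 ± 20.5 FPKM at 42 h and 976 ± 51.5 FPKM at 18 h (SD, n = 3 each). The values of its loci An05g02100 and An12g06930 are identical in every library, so the copies were not told apart in the counting. aglU, an alpha-glucosidase gene, had 75.4 ± 28.8 FPKM at 42 h and 82.8 ± 6.3 FPKM at 18 h. amyR, which encodes the activator of starch enzyme genes, was listed at 0 in most libraries.

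A set of genes was read at 42 h and not at 18 h. There were 5 genes at 0 throughout 18 h that reached 100 FPKM or more in each 42 h library, and all were called. An15g02040 had 556, 443 and 302 FPKM at 42 h. An16g05240 had 262, 169.5 and 261 FPKM, An10g01040 had 147, 286 and 189 FPKM, and An03g06410 had 125, 107 and 166 FPKM. These 4 genes were above 0 in at least 2 of the 3 libraries at 24 h and in both libraries at 66 h. An01g00550, with 150.0, 102 and 209.6 FPKM at 42 h, was also listed at 0 in all 24 h libraries, and had 39.1 and 41.3 FPKM at 66 h. Where reads could be recovered, these levels stand for 6 to 14 reads a library, and no fold is given against a group at 0.

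Genes with a few reads at 18 h showed rises of like size. An14g02300 had 659, 688 and 684 FPKM at 42 h, or 76, 82 and 79 reads, against 9.90, 10.6 and 0 FPKM at 18 h, or 1, 1 and 0 reads (log2 fold change 7.08, SE 0.89, limma adjusted p = 0.0009451). An01g03520 had 194, 294 and 345 FPKM at 42 h, against 0, 10.3 and 0 FPKM at 18 h (log2 fold change 6.91, SE 1.01, limma adjusted p = 0.002398). Both were intermediate at 24 h, with 194, 35.2 and 59.98 FPKM for An14g02300 and 105, 11.4 and 23.3 FPKM for An01g03520. In each of the next 3 risers, 1 of the 18 h libraries was above 0 and their calls were less firm. An18g03860 had 644, 418 and 598 FPKM at 42 h, against 0, 0 and 109 FPKM at 18 h. An03g02310 had 244, 325 and 213 FPKM at 42 h, against 0, 18.7 and 0 FPKM at 18 h. An14g01790 had 238, 231 and 302 FPKM at 42 h, against 0, 53.2 and 0 FPKM at 18 h. Their limma adjusted p-values were 0.01905, 0.03756 and 0.01994, and each was above 0.05 in 7 to 9 of the 22 other settings, among them leaving out any 1 of the 42 h libraries.

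In the other direction, 6 genes at 0 throughout 42 h had 100 FPKM or more in each 18 h library, and all were called. At 18 h, An01g07740 had 305, 166 and 284 FPKM, An04g08190 had 190.1, 274 and 249 FPKM, and An18g02410 had 211, 162 and 148 FPKM, the last standing for 32, 23 and 20 reads. The other members with reads recovered, An01g07740, An04g08190, An09g00540 and An12g01270, rested on 3 to 8 reads in each 18 h library. An18g05715 had 191, 211 and 318 FPKM at 18 h, and An09g00540 and An12g01270 complete the set. At 66 h, An01g07740, An04g08190 and An09g00540 were at 0 in both libraries, while An18g05715 was at 0 and 153 FPKM. A seventh gene, An01g14390, had 0, 0 and 2.53 FPKM at 42 h, against 266, 201 and 176 FPKM at 18 h (log2 fold change -7.12, SE 1.14, limma adjusted p = 0.004134). It was already at 0, 6.87 and 7.0 FPKM at 24 h, unlike An18g02410, which had 71.9, 219 and 208 FPKM then. A value of 0 is a count of no reads at this depth and not absence: tpiA, the gene of triosephosphate isomerase in glycolysis, was itself listed at 0 in 42 h replicate 1 and 18 h replicate 3.

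**Figure D3:**
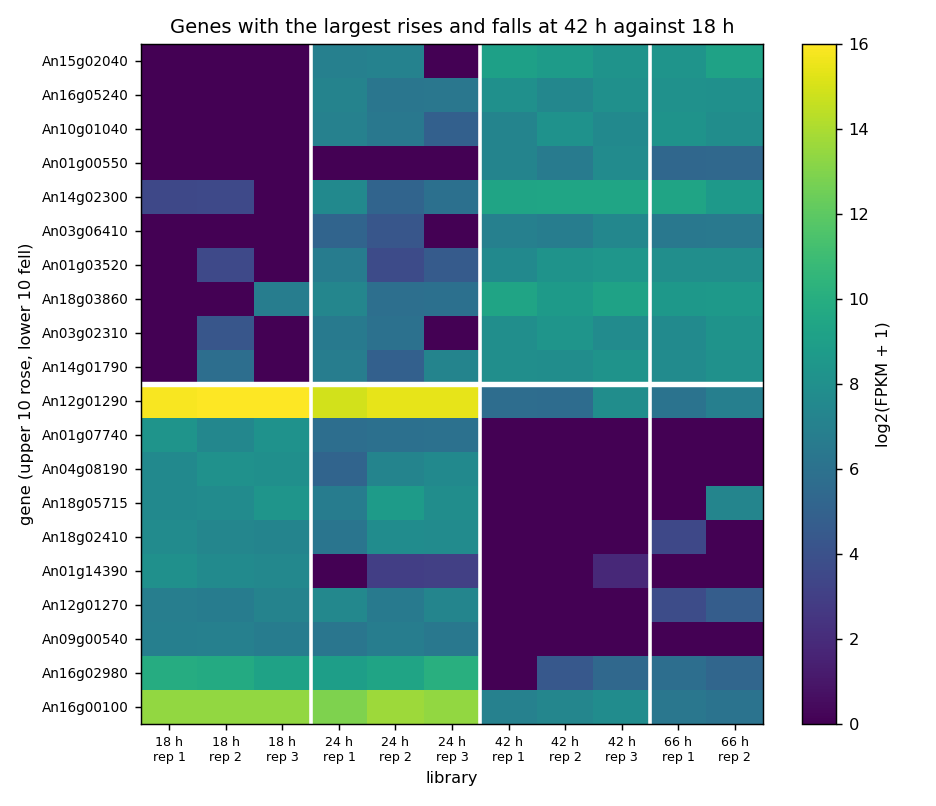
Levels in log2(FPKM + 1), by colour, of the 10 genes with the largest rises (upper rows) and the 10 with the largest falls (lower rows) in each of the 11 libraries, in order of time. Each row that rose is brighter in every 42 h library than in every 18 h library, and each row that fell is darker. An16g00100, at 131 to 224 FPKM at 42 h, still lay within the range of the rows that rose. At 24 h, An01g00550 was the only gene of these at 0 in all 3 libraries.

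Genes next to each other in the gene order were looked at together. Among 10398 pairs of genes next to each other in the order of the RefSeq table (assembly ASM285v2), both genes were called in 45. Of these, 17 had both up, 18 had both down and 10 went in opposite directions. In 952 pairs 1 gene was called, and in 9401 neither was. Over all genes tested, 6.00% were called, and whether 45 pairs exceed what that share gives was not tested. Only 1 run of 3 or more neighbours was called in the same direction, the 5 genes from An09g00530 to An09g00570, all of which fell. An09g00570 had 134, 129.8 and 209.9 FPKM at 42 h, against 479, 540.3 and 637 FPKM at 18 h (log2 fold change -1.83, SE 0.28, limma adjusted p = 0.003345). An09g00530 had 28.3, 100.4 and 56.5 FPKM at 42 h, against 280.0, 254 and 315 FPKM at 18 h (log2 fold change -2.35, SE 0.49, limma adjusted p = 0.01791). The 3 genes between them were listed at 0 in every 42 h library. At 18 h, An09g00540 had 117, 126 and 105 FPKM, An09g00550 had 27.9, 37.3 and 31.4 FPKM, and An09g00560 had 107, 48.0 and 40.3 FPKM.

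The levels of the run's genes differed at 24 h. An09g00550 was at 0 in all 24 h libraries and An09g00560 at 0 to 10.6 FPKM, while An09g00540 still had 76.2, 111 and 84.9 FPKM. An09g00530 and An09g00570 averaged 121 ± 5.97 and 134 ± 31.4 FPKM at 24 h (n = 3), below every 18 h value of each. At 66 h the middle 3 genes were at 0 in both libraries, and An09g00570 had 282 and 263 FPKM. The neighbours tested on both sides, An09g00500 and An09g00520 before and An09g00580 to An09g00600 after, were not called, with limma adjusted p-values of 0.303 to 0.938. The call of An09g00530 was lost without 18 h replicate 1 or 3 or without 42 h replicate 1 or 3 (adjusted p 0.0513 at the lowest), which would shorten the run to 4 genes. With 1 variance prior for all levels both ends of the run were lost (limma adjusted p 0.07508 for An09g00530 and 0.06013 for An09g00570), which leaves the middle 3 genes.

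**Figure D4:**
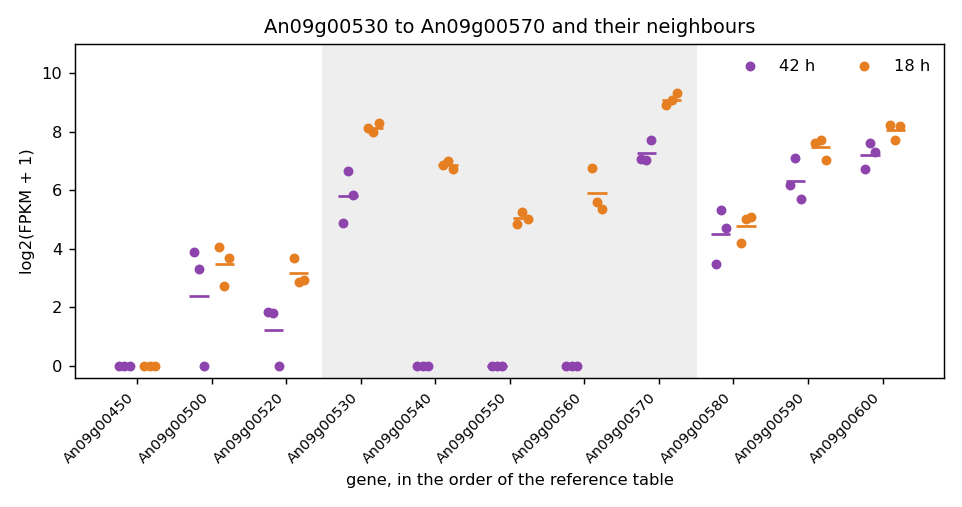
Levels in log2(FPKM + 1) of the run An09g00530 to An09g00570 (shaded) and its neighbours, in gene order, with 42 h (purple) left of 18 h (orange). Points are libraries and short lines are means (n = 3 each). Within the shaded genes every 42 h value lies below every 18 h value, and 3 of the genes are at 0 throughout at 42 h.

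Some pairs of neighbours, named after their values were seen, held very unequal levels. An03g06400 averaged 1614 ± 85.4 FPKM at 42 h and 47.1 ± 26.9 FPKM at 18 h (SD, n = 3 each) and rose beside An03g06410, which averaged 133 ± 30.1 FPKM at 42 h. An11g03340 averaged 462 ± 122 FPKM at 42 h and 201 ± 31.5 FPKM at 18 h, beside the more abundant An11g03350. An07g05760, with a mean of 339 FPKM at 42 h and 147 FPKM at 18 h, rose beside An07g05770.

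Among the 91 genes with a symbol that were tested, 3 (against 6.00% of all genes tested) were called. Besides glaA these were sspB and EPR. sspB (An09g06590) had 386, 457.5 and 392 FPKM at 42 h, against 1100.3, 1053 and 1203 FPKM at 18 h, with no overlap (log2 fold change -1.44, SE 0.18, limma adjusted p = 0.0008878). With 1 variance prior for all levels its limma adjusted p was 0.09309. EPR (An08g04490), which encodes a secreted prolyl endoprotease, had 31.0, 7.5 and 15.5 FPKM at 42 h, or 4, 1 and 2 reads, and was listed at 0 in all 18 h and 24 h libraries (limma adjusted p = 0.03877). Its mean over all libraries is under 30 FPKM. EPR was not tested under the stricter filter, and its call was lost in 10 of the 21 other settings that tested it.

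Carbon metabolism, respiration, secretion and nitrogen genes with a symbol gave no further calls. Counts in these lists stand beside 6.00% of all genes tested that were called and 18.1% that had an unadjusted p under 0.05. Of 6 glycolysis genes, 0 were called and 1 had an unadjusted p under 0.05. It was pkiA, the pyruvate kinase gene, at 1361 ± 126 FPKM at 42 h and 1921 ± 479 FPKM at 18 h. gpdA, which encodes glyceraldehyde-3-phosphate dehydrogenase, had 382 ± 20.9 FPKM at 42 h and 440 ± 27.1 FPKM at 18 h. The median log2 fold change of the list was -0.23, beside -0.01 over all genes tested.

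Of 4 genes of mitochondrial respiration, 0 were called and 0 had an unadjusted p under 0.05. Among them aox1, the gene of the alternative oxidase, which passes electrons to oxygen without the cytochrome chain, had 566, 445 and 282 FPKM at 42 h, against 350, 535 and 439 FPKM at 18 h, and the groups overlapped. cyc, the cytochrome c gene, had 53.5 ± 22.3 FPKM at 42 h and 16.7 ± 29.0 FPKM at 18 h. Of 6 genes of the citric acid cycle, anaplerosis and fermentation, 0 were called and 1 had an unadjusted p under 0.05. adhA, an alcohol dehydrogenase gene, had 58.6 ± 20.9 FPKM at 42 h and 48.2 ± 10.9 FPKM at 18 h. citA, the citrate synthase gene, had 94.3 ± 60.9 FPKM at 42 h and 66.0 ± 20.3 FPKM at 18 h. The mean of aldA was also higher at 42 h (35.2 against 13.7 FPKM). Those of facB (43.1 against 87.5 FPKM), pyc (28.8 against 49.5 FPKM) and icdA (6.63 against 32.7 FPKM) were lower. The medians of these lists were -0.03 and -0.31 on the log2 scale.

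Of 13 genes of folding and secretion, 0 were called and 1 had an unadjusted p under 0.05, and 10 of them averaged under 30 FPKM. The 1 was bipA, the gene of the main chaperone of the endoplasmic reticulum, with 283, 286 and 380 FPKM at 42 h, against 441, 443 and 629 FPKM at 18 h. Its groups did not overlap, and neither did those of many genes that were not called. ostA had 577 ± 39.5 FPKM at 42 h and 475 ± 126 FPKM at 18 h. Of 9 genes of proteases and their activator, EPR was the only call and 2 had an unadjusted p under 0.05, beside the same 6.00% and 18.1%. PrtT, the activator of extracellular protease genes, had 335 ± 31.4 FPKM at 42 h and 267 ± 67.1 FPKM at 18 h. The median log2 fold changes were 0.84 for folding and secretion and 1.53 for the proteases, over genes that were mostly near 0.

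Of 14 genes for enzymes of plant polysaccharides, 0 were called and 0 had an unadjusted p under 0.05. eglB, an endoglucanase gene, had 161 ± 34.9 FPKM at 42 h and 91.4 ± 26.7 FPKM at 18 h. Of 8 genes of nitrogen use and amino acid synthesis, 0 were called and 1 had an unadjusted p under 0.05. niaD, the nitrate reductase gene, had 415 ± 75.3 FPKM at 42 h and 295 ± 77.1 FPKM at 18 h. The means of areA and of the cpcA locus An01g07890 were also higher at 42 h. Those of the other cpcA locus, An01g07900 (28.1 against 110 FPKM), argB (14.5 against 59.3 FPKM), trpC, leu2A and gdhA were lower. The groups did not overlap in An01g07900, argB and trpC, and they overlapped in the other members of this list. Both ribosomal protein genes with a symbol were not called, and rpl15 had 201 ± 70.3 FPKM at 42 h and 323 ± 22.9 FPKM at 18 h. The medians of these 3 lists were 0.66, -0.89 and -0.42. The lists are short, and a p that misses the threshold does not show that the levels were alike.

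The libraries at 24 h and 66 h place the change in time. On a log2 scale on which 0 is the 18 h level of a gene and 1 its 42 h level, the 24 h mean of the 207 genes that rose had a median position of 0.45. That of the 226 genes that fell was 0.13. For 83 of the genes that rose the 24 h mean was nearer to the 42 h level, and for 3 it was beyond it. For 36 of the genes that fell the 24 h mean was nearer to the 42 h level, and for 24 it was beyond it. On the other side, the 24 h mean was below the 18 h level for 13 of the genes that rose. It was above the 18 h level for 74 of the genes that fell. Taking both directions, 33.7% of the 433 genes stood nearer to 42 h than to 18 h at 24 h, or beyond 42 h. This share is over genes, which are not independent and were read in the same 24 h libraries.

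A single library weighs on this. In 24 h replicate 1 the median position was 0.59 for the genes that rose, against 0.31 and 0.30 in replicates 2 and 3, and 0.26 for the genes that fell, against 0.09 and 0.11. Without replicate 1 the medians were 0.33 and 0.08. At 66 h most of these genes stood near their 42 h level. The median position was 1.01 for the genes that rose and 1.00 for those that fell, and 197 of 207 and 206 of 226 stood nearer to the 42 h level or beyond it.

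Among the 47 genes of at least 1000 FPKM that fell, 22 were above their 18 h level at 24 h. Their median position at 24 h was 0.02, close to the 18 h level, so standing on either side of it is no change by itself. From 30 to 100, 100 to 300 and 300 to 1000 FPKM, 19 of 62, 16 of 60 and 17 of 57 genes that fell were above it. All 47 were nearer to the 42 h level, or beyond it, at 66 h. An11g07340 had 4073, 5094 and 5141 FPKM at 24 h and averaged 988 ± 53.5 FPKM at 42 h and 2334 ± 159 FPKM at 18 h. It was 1 of 4 genes called that stood at least 2-fold past the 18 h level at 24 h, away from the 42 h level. The others were An04g01610, An05g00900 and An12g01620. An05g00900 had 16.5, 5.32 and 33.0 FPKM at 42 h, against 75.5, 74.2 and 99.2 FPKM at 18 h, with 144, 202 and 206 FPKM at 24 h between them in time.

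The later pair of times, 66 h against 24 h, shares no library with 42 h against 18 h, although both come from the same fit. In it, 481 of the 8693 genes were called (5.53%), 194 upwards (2.23%) and 287 downwards (3.30%). Among the 2933 genes of at least 30 FPKM, 402 were called (13.7%), 146 upwards (4.98%) and 256 downwards (8.73%). Of the 207 genes that rose at 42 h, 72 (34.8%) also rose at 66 h against 24 h and 0 fell. Of the 226 that fell at 42 h, 116 (51.3%) also fell and 7 rose. Both pairs of times share 1 variance estimate per gene, and abundant genes were called more often. The shares over all 2933 genes are therefore not a like baseline for genes already called. The sign was shared by 183 (88.4%) of the risers, beside 46.9% of all 2933 genes with a rise, and by 199 (88.1%) of the genes that fell, beside 53.0% of all with a fall. Without 24 h replicate 1 the counts called were 84 (40.6%, beside 6.96% of all) and 112 (49.6%, beside 8.01% of all). The 481 calls rest on both 66 h libraries: they became 180 without replicate 1 and 233 without replicate 2 of that time.

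**Figure D5:**
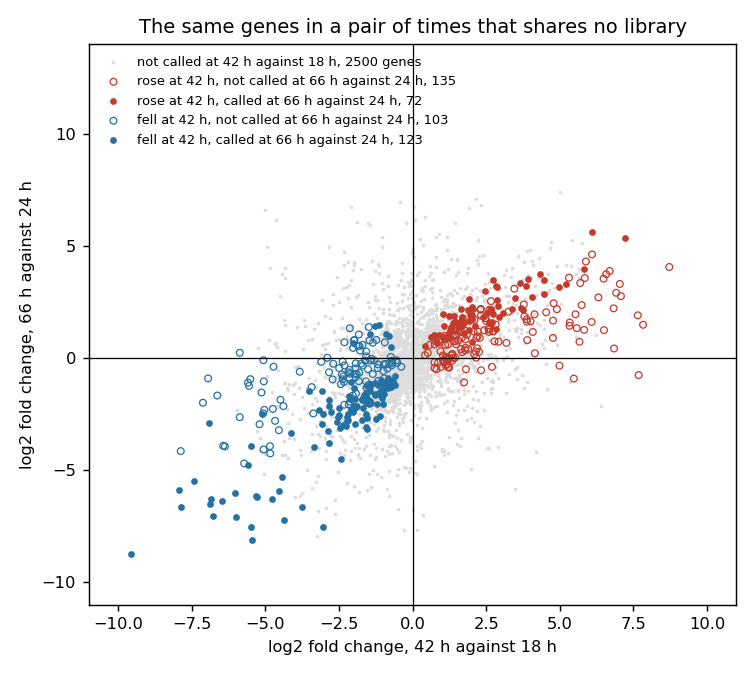
Log2 fold change of 66 h against 24 h (vertical axis) over that of 42 h against 18 h (horizontal axis) for the 2933 genes with a mean of at least 30 FPKM. Red genes rose and blue genes fell at 42 h against 18 h, and filled points were also called at 66 h against 24 h in either direction. The red filled points lie at upper right (72 genes) and most of the blue filled points at lower left (116 of 123).

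The 7 genes that fell at 42 h against 18 h and rose at 66 h against 24 h had their lowest mean at 24 h. They were An01g05140, An07g03990, An08g11190, An11g09660, An16g06900, An18g06650 and An19g00300. An16g06900 averaged 8333 ± 994 FPKM at 18 h, 1535 ± 136 FPKM at 24 h, 2028 ± 207 FPKM at 42 h (SD, n = 3 each) and 2431 ± 555 FPKM at 66 h (n = 2). An11g09660 averaged 714 ± 40.2, 212 ± 45.4, 296 ± 22.8 and 578 ± 175 FPKM at the same times.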

How the data were processed

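Total RNA of frozen broth was made into Illumina libraries, per the labels' protocols. The authors deposited FPKM values, 1 per gene and library. They used RSEM, per the submitters' processing notes. For the aligner, genome build, annotation and RSEM version, nothing is given in the sources used here. FPKM divides by the mapped total, so a change in very abundant transcripts moves the values of the rest.

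The filter kept genes with 1 FPKM or more in 2 or more libraries. The test was limma 3.58.1 (R 4.3.3) on log2(FPKM + 1). The fit had 1 mean per time, all 11 libraries and a variance prior with a trend on the level. It was also run on simulated reads, with known changes only in genes at 100 FPKM or more and a spread set in advance. That run cannot show how the fit does at the spread of these data or in low genes. Tests were two-sided and called at a Benjamini-Hochberg adjusted p under 0.05. The mapped total of each library is not given. Reads were recovered only for the 7519 genes described above, and summed to 15002 to 17082 in each of the 6 libraries compared.

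Genes named were those called, with a mean of at least 30 FPKM, that had the 10 largest log2 changes each way (lowest library of the higher group at 100 FPKM or more) or the 5 largest differences of mean FPKM each way, that carried a symbol (EPR is under 30 FPKM), that were at 0 in all of 1 group and at 100 FPKM or more in the other, or that lay in runs of at least 3 neighbours called alike, with 2 run members under 30 FPKM added; others are marked. Members of lists that were not called are given as values. Lists were meant to use product names, but the RefSeq table gives only symbols, so lists were made from symbols. Of the gene identifiers, 10417 matched it and 28 did not. Members and lists were chosen with earlier results of these data known.

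Alternatives were pseudocounts of 0.1 and 10, no filter, a stricter filter, other scalings, no variance trend, voom weights, a replicate block, only the 6 libraries compared, and leaving out each library in turn. Replicate numbers were not taken to pair samples.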

Additional observations from a re-analysis of the deposited data

How the results depend on the processing

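The 522 calls at 42 h against 18 h became 249 without a trend in the variance, 446 and 608 with pseudocounts of 0.1 and 10, 739 with voom weights, and 380 to 577 when 1 library was left out (380 without 18 h replicate 1). Scaling to the same FPKM sum moved the median log2 fold change of the 2933 genes stressed to 0.01, against -0.11 as deposited, and gave 241 rises and 192 falls among them. The count of symbols called was 1 without the trend (EPR) and 2 to 4 when 1 library was left out. At 66 h against 24 h, the 481 calls became 155 without the trend, 772 with voom weights, and 180 to 543 when 1 library was left out (180 without 66 h replicate 1, 233 without 66 h replicate 2). The share of genes nearer to 42 h at 24 h was 28.5% without the trend and 28.2% to 38.9% when 1 library was left out. Of the 35 genes named by the rule, 24 kept their call under all 22 other settings. The replicate block gave 409 calls at 42 h against 18 h and 301 at 66 h against 24 h, but the correlations of deviations between libraries of the same number were 0.009, -0.021 and 0.017 at 42 h and 18 h, and 0.054 and -0.004 at 66 h and 24 h, so the replicate block was not taken as a pairing. The cause of these shifts was not tested. Depth limits the low genes: of the 263 called genes with reads recovered, 62 had under 10 reads over the 3 libraries of their higher group. Among the 176 of these with a mean of at least 30 FPKM, 9 had under 10 reads.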
